A study of Homo sapiens with 9 samples.

Results

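The genes described here are 40 human genes that drive a cell through mitosis and carry its spindle, chosen by name for these roles. Their read pairs were counted in 4 TIF-Seq2 libraries by summing every pair with both ends on the gene's strand within 1000 bp of its Gencode v44 body. All 40 had at least 1 read pair, out of 22384 annotated genes that did, and 39 had enough pairs to be tested among 12135 genes. K562, an established human line that the study names both erythroleukemia and chronic myeloid leukaemia, carries the BCR-ABL1 fusion kinase. Imatinib is the tyrosine kinase inhibitor that blocks this kinase. Cells of this single line were exposed for 24 h to 1 μM imatinib or to DMSO, the vehicle, and each condition has 2 libraries, called DMSO replicates 1 and 2 and imatinib replicates 1 and 2. TIF-Seq2 joins the ends of full-length cDNA into a circle before sequencing, so that each read pair gives the start and the poly(A) site of 1 capped and polyadenylated molecule. The study's methods describe the replicates as biological, and p-values measure the spread between these 2 libraries of each condition. The labels also name 3′T-fill and long-read samples, which were not analysed here.

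At entry into mitosis the kinase CDK1 bound to cyclin B, with the polo and aurora kinases, triggers condensation of the chromosomes and assembly of the spindle. The spindle assembly checkpoint holds the cell there until every kinetochore is attached to microtubules, after which CDC20 and the anaphase-promoting complex release separase and cyclin B is destroyed. Most of these genes are transcribed in the G2 and M phases, and their promoters are known for the CHR, a short element read by the DREAM and MMB-FOXM1 complexes, and for CCAAT boxes bound by NF-Y. In a bulk library, fewer cells in mitosis and less RNA per mitotic cell cannot be told apart.

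The start sites measured in these libraries place such letters on the promoter. The CHR was searched as TTTGAA and the CCAAT box as CCAAT, each on both strands, from 250 bp before to 50 bp after the most used start position, where a CCAAT box and a CHR can share at most 1 letter. Of the 31 members with a linked start and poly(A) site, 25 (80.6%) held a CHR in this window against 10.1% of the 6914 genes with such a link, and 25 (80.6%) held a CCAAT box against 38.7%. Both were present in 20 members (64.5%), against 4.48% of all these genes. Pairs of CCAAT boxes were common, with 18 members (58.1%) holding at least 2, against 15.6%. A CHR that began between 60 bp before and 30 bp after the start, a window chosen after the positions were seen, was found in 22 members (71.0%) and in 2.99% of all genes. Of 52 other mitotic genes with a link, 31 (59.6%) held a CHR and 35 (67.3%) a CCAAT box. Both were present in 22 (42.3%) of them, and 23 (44.2%) held at least 2 CCAAT boxes. A CHR in the narrower window was found in 24 (46.2%), so these traits were not particular to the members. These matches are a description of the letters in the window and not of binding. The members shown next were chosen for the arrangements they illustrate, from 120 bp before the most used start to 29 bp after it in hg38, with the matches in capitals.

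CCNB2 promoter, chr15:59105026-59105175, + strand: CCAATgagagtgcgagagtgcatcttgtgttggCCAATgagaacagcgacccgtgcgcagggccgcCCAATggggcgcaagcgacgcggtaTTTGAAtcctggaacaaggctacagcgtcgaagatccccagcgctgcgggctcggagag
PLK1 promoter, chr16:23678780-23678929, + strand: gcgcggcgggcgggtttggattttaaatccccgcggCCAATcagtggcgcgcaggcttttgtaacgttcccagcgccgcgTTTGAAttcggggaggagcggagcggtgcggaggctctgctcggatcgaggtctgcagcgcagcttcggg
HMMR promoter, chr5:163460523-163460672, + strand: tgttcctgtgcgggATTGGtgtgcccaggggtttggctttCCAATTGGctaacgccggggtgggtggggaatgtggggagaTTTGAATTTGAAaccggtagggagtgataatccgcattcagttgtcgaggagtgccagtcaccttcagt
ANLN promoter, chr7:36389742-36389891, + strand: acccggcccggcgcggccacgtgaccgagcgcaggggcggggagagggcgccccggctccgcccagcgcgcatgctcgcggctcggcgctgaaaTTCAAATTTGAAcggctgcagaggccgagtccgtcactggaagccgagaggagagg
CENPA promoter, chr2:26785947-26786096, + strand: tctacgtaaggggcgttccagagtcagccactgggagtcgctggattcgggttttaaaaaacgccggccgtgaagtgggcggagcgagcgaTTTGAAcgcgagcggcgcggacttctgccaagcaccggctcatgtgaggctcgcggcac
CCNB1 promoter, chr5:69167052-69167201, + strand: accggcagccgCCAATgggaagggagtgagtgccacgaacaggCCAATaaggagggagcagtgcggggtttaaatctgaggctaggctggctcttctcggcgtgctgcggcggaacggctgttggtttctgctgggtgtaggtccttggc

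CCNB2 showed the arrangement in full, with CCAAT boxes 120, 87 and 54 bp before the start and a CHR 29 bp before it. PLK1 held a CCAAT box 84 bp before the start and a CHR 40 bp before it. In HMMR a pair of CCAAT matches on opposite strands overlapped and 2 CHR matches lay end to end, 39 and 33 bp before the start, and in ANLN 2 matches lay on opposite strands 26 and 20 bp before it. CENPA held a CHR 29 bp before its start, and its CCAAT boxes lay further upstream than the sequence shown, 141 and 216 bp before the start. CCNB1 held CCAAT boxes 109 and 77 bp before the start and no TTTGAA, so that this gene, like CCNA2, PTTG1, BUB1, KIF20A and KIF2C, had no match to the CHR letters searched. KIF2C held neither motif.

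**Figure D1:**
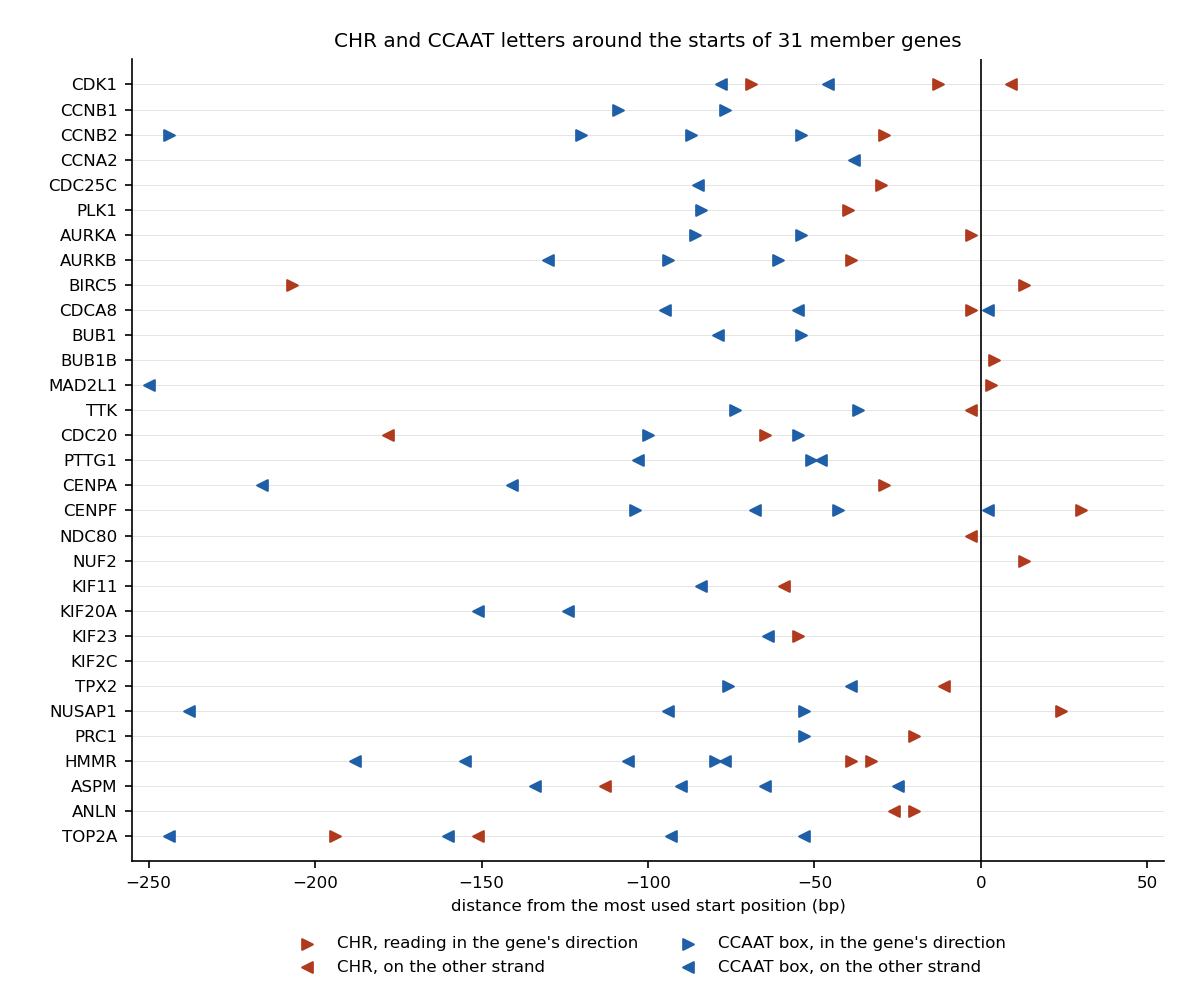
Position of CHR (red) and CCAAT (blue) letters, in bp from the most used start position, for 31 member genes in rows, where a triangle pointing right marks a match in the gene's direction and one pointing left a match on the other strand. The CHR matches of 22 members begin between 60 bp before and 30 bp after the start, and the CCAAT matches lie mostly upstream of them.

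The libraries held 2263121 to 5135829 read pairs, with imatinib replicate 2 the shallowest, and 97.5% to 98.5% of them lay in a gene. The members together held 64561 read pairs, 0.420% of all, or 0.405% to 0.489% of a library. Floors and intervals on counts cover counting error only, and a count of 0 allows up to 3 read pairs, which is 1.33 CPM (counts per 1000000 read pairs) in the shallowest library and 0.584 in the deepest. The erythroid character of K562 was visible in every library, as all 12 erythroid markers had read pairs, which summed to 13147 and 17352 in the DMSO libraries and 58471 and 26139 in the imatinib libraries. Of the lymphoid markers, CD3E and MS4A1 were at 0 in all libraries and the sum was 367 and 516 read pairs with DMSO and 127 and 58 with imatinib. CD3D, a chain of the T cell receptor complex, made up most of the DMSO sums at 257 and 304 read pairs, against 23 and 8 in the imatinib libraries, and it was lower with imatinib at a log2 fold change of -3.88 (SE 0.37, edgeR adjusted p = 0.0012). Of the fibroblast and epithelial markers PDGFRA and CDH1 were at 0 and EPCAM, with 208 to 703 read pairs, made up most of the sum of 211 to 728. The erythroid and lymphoid sums moved with imatinib, and their part in the values of the mitotic genes was not tested.

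Few of the mitotic genes passed the test of imatinib against DMSO at 24 h. In edgeR's quasi-likelihood test, adjusted over 12135 genes, 1 of 39 members was lower (CENPA) and 0 were higher at an adjusted p under 0.05, where 14.8% of all genes were called, 6.15% lower and 8.69% higher. The median log2 fold change of the members was -0.02, and that of all genes tested was 0.03. In DESeq2 the same count was 1, also CENPA, where 10.7% of genes were called, 734 lower and 692 higher, against 746 lower and 1054 higher with edgeR. At an unadjusted p under 0.05, 1 member was lower and 1 (NDC80) was higher, where 31.2% of all genes passed. The normalized levels of the 2 conditions did not overlap in 17 of 39 members, 8 lower and 9 higher with imatinib, where 60% of all genes did not overlap. For 23 of the 39 the 95% interval of the log2 fold change lay within 1 of 0 on either side. The SE of a member ran from 0.24 to 0.46, and uncalled values reached 0.81 on the log2 scale (CENPE, SE 0.36), so changes of that size could be missed with 2 libraries in each condition.

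**Figure D2:**
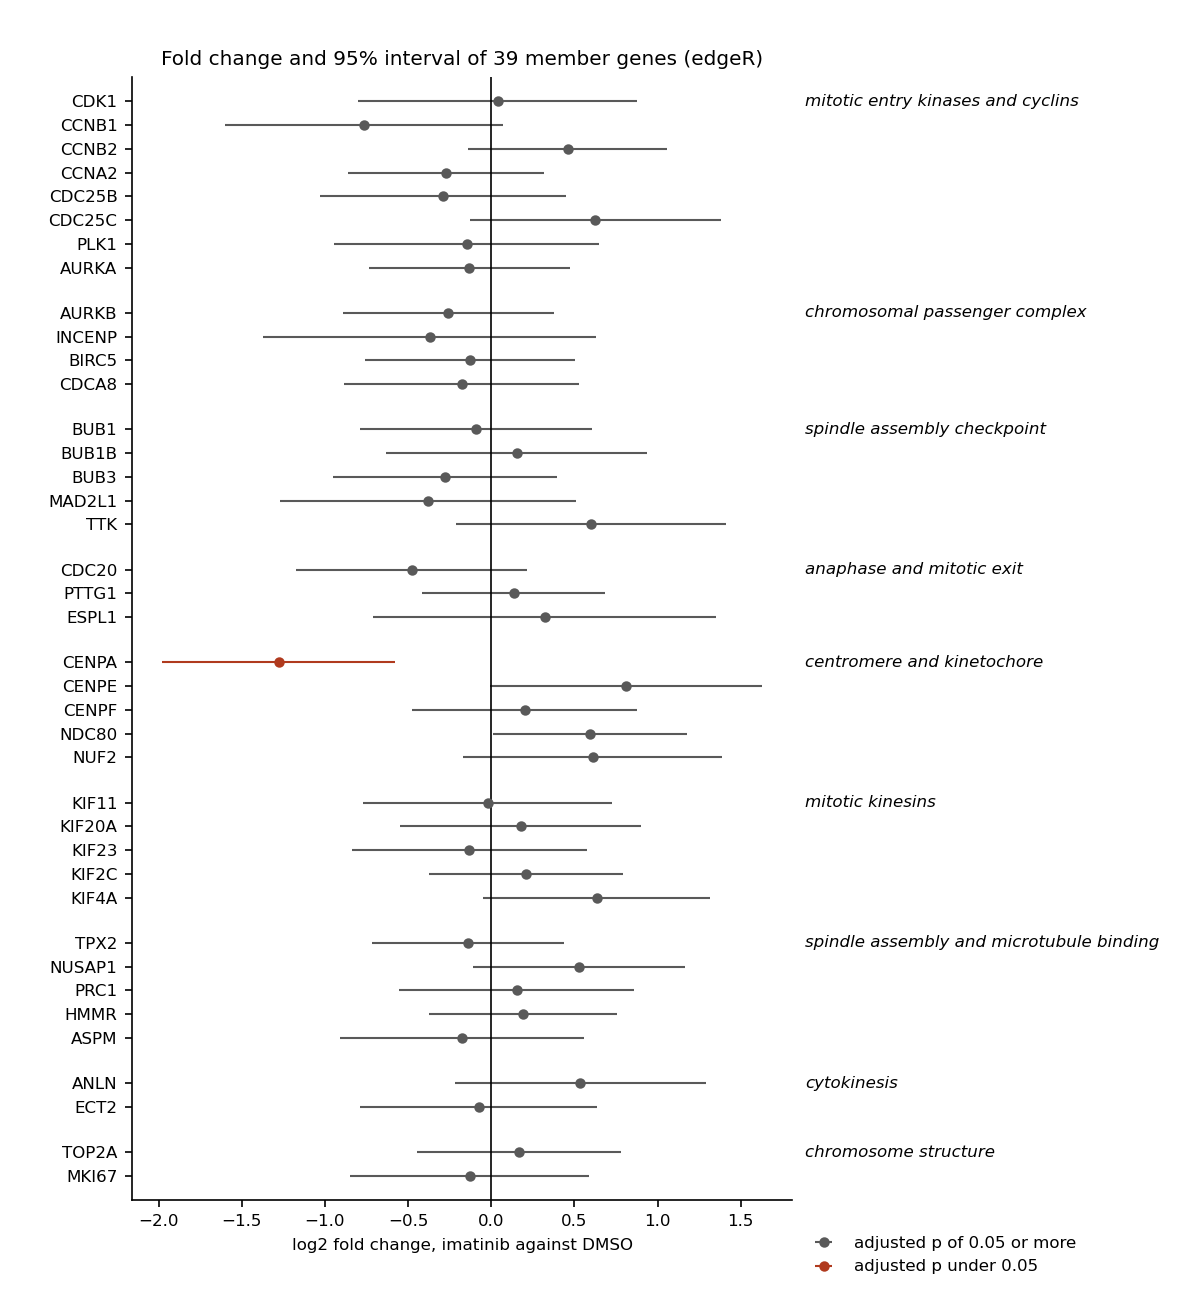
Log2 fold change of imatinib against DMSO for 39 member genes, grouped by role, with the 95% interval from edgeR as a line and genes called at an adjusted p under 0.05 in red. Only CENPA, at -1.28, is called, and the intervals of the others cover 0 except that of NDC80, whose lower end is at 0.01.

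CENPA, the histone H3 variant that marks the centromere, was the member that fell. In the order DMSO replicate 1, DMSO replicate 2, imatinib replicate 1 and imatinib replicate 2, used for all values listed by library, it had 286, 652, 210 and 88 read pairs, which came to 75.2, 114, 42.3 and 35.6 CPM after TMM normalization. Both imatinib libraries lay below both DMSO libraries, although the DMSO libraries themselves differed by a factor of 0.659. The log2 fold change was -1.28 (SE 0.31, 95% interval -1.98 to -0.58, edgeR adjusted p = 0.027), and in DESeq2 it was -1.34 with an adjusted p of 0.0045. The call rested in part on DMSO replicate 2: without that library the value was -0.96 with an adjusted p of 0.27, and with the replicate number as a block it was -1.25 with an adjusted p of 0.069, where 9.46% of all genes were called. The annotated body of CENPA begins inside SLC35F6, its upstream neighbour on chromosome 2, and 106 of its 1236 read pairs lay wholly within that gene. Of these shared pairs 31 and 62 came from the DMSO libraries and 4 and 9 from the imatinib libraries, and without pairs that fall to more than 1 gene the log2 fold change was -1.20 (adjusted p = 0.036).

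The other kinetochore genes were not called. NDC80 and NUF2, partners in the NDC80 complex that grips microtubules, had 73.7, 75.8, 108 and 118 and 92.1, 62.3, 86.0 and 150.2 CPM. Both imatinib values of NDC80 lay above both DMSO values, whereas those of NUF2 overlapped with DMSO. Their log2 fold changes were 0.59 (SE 0.26, edgeR adjusted p = 0.15) and 0.61 (SE 0.34, edgeR adjusted p = 0.26). CENPE, a kinetochore kinesin, had 33, 75, 113 and 38 read pairs, which came to 8.68, 13.1, 22.8 and 15.4 CPM, and a log2 fold change of 0.81 (SE 0.36, edgeR adjusted p = 0.16), and in CPM both imatinib libraries lay above both DMSO libraries. CENPF, a large kinetochore protein that is also a classical G2 marker, had 75.5, 66.9, 65.1 and 99.2 CPM, with imatinib replicate 1 below and replicate 2 above the DMSO libraries. Of the 5 kinetochore members 1 was called, CENPA, where 14.8% of all genes were called.

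None of the 8 kinases, cyclins and phosphatases of mitotic entry was called, and at an unadjusted p under 0.05 the count was also 0. Over all genes tested 14.8% were called and 31.2% passed unadjusted, and in groups this small a count of 0 says little about the group. CCNB1, the main partner of CDK1 at mitotic entry, had 197, 169.9, 67.3 and 150.2 CPM, so that both imatinib libraries lay below DMSO but replicate 1 far more so than replicate 2, and its log2 fold change was -0.76 (SE 0.37, edgeR adjusted p = 0.19). CCNB2, the other B-type cyclin, had 206, 159, 227 and 276, above DMSO in both imatinib libraries, with 0.46 (SE 0.27, edgeR adjusted p = 0.27). CCNA2, the cyclin A of S and G2 phase, had 189, 196, 138 and 180.2, below DMSO in both, with -0.27 (SE 0.26, edgeR adjusted p = 0.51). The 2 B-type cyclins thus lay on opposite sides of DMSO, and the difference between them was not tested. PLK1, the polo kinase, had 169, 152, 93.9 and 197 CPM, with the imatinib libraries on either side of the DMSO libraries and a log2 fold change of -0.15 (SE 0.35, edgeR adjusted p = 0.81). AURKA, the aurora kinase of the spindle poles, had a log2 fold change of -0.13 (SE 0.27). CDK1 itself had 41.0, 61.8, 68.9 and 36.0 CPM, and its libraries interleaved. Of the phosphatases that activate CDK1, CDC25C had a log2 fold change of 0.63 (SE 0.33, edgeR adjusted p = 0.24) with both imatinib libraries above DMSO, and CDC25B, at only 208 read pairs in all, one of -0.29 (SE 0.33).

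The chromosomal passenger complex, which corrects faulty attachments and then directs cytokinesis, had log2 fold changes below 0 in all 4 subunits, from -0.37 to -0.13. Each was smaller in size than its SE (0.28 to 0.44), and 5890 of all 12135 genes tested lay below 0. By edgeR 0 of 4 were called, also at an unadjusted p under 0.05, where 14.8% and 31.2% of all genes passed. BIRC5, also known as survivin, had 278, 241, 190.3 and 285 CPM and a log2 fold change of -0.13 (SE 0.28, edgeR adjusted p = 0.79). Only imatinib replicate 1 was below DMSO. The kinase AURKB had 53.9, 52.7, 49.5 and 39.3, below DMSO in both imatinib libraries, with -0.26 (SE 0.28, edgeR adjusted p = 0.57). CDCA8, or borealin, had 52.1, 51.5, 35.7 and 56.7 CPM. INCENP, the scaffold of the complex, had only 14, 23, 14 and 8 read pairs, and its interval, -1.37 to 0.63, was among the widest.

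The spindle assembly checkpoint genes gave 0 calls among 5, and 0 at an unadjusted p under 0.05, where 14.8% and 31.2% of all genes passed. MAD2L1, the checkpoint protein that inhibits CDC20, had 86.0, 69.7, 36.3 and 84.6 CPM, so that imatinib replicate 1 was low and replicate 2 lay within the DMSO values. TTK, the kinase also called MPS1, showed the reverse with 27.9, 27.5, 29.0 and 55.9, where only imatinib replicate 2 stood well above the rest. The log2 fold changes were -0.38 (SE 0.39, edgeR adjusted p = 0.55) for MAD2L1 and 0.60 (SE 0.36, edgeR adjusted p = 0.29) for TTK. The kinase BUB1, its relative BUB1B and their partner BUB3 had log2 fold changes of -0.09, 0.15 and -0.28, with SEs of 0.31, 0.35 and 0.30.

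Among the genes of anaphase and mitotic exit, 0 of 3 tested were called, and 0 at an unadjusted p under 0.05. The shares over all genes were 14.8% and 31.2%. PTTG1, or securin, which holds separase inactive, had more read pairs than any other member, 1836, 2343, 2459 and 1199. Its 483, 410.3, 495 and 485 CPM gave a log2 fold change of 0.13 (SE 0.24, edgeR adjusted p = 0.75), with an interval of -0.41 to 0.68. CDC20, the activator of the anaphase-promoting complex, had 160.2, 157, 84.6 and 145 CPM, below DMSO in both imatinib libraries, and a log2 fold change of -0.48 (SE 0.31, edgeR adjusted p = 0.32). ESPL1, the protease separase, had 10, 23, 19 and 12 read pairs. UBE2C, the ubiquitin-conjugating enzyme of that complex, had a single read pair, in DMSO replicate 1, and only 6 pairs of either strand had any end in or within 1000 bp of it, so no value can be given for it.

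The mitotic kinesins had log2 fold changes from -0.13 (KIF23) to 0.63 (KIF4A), with 0 of 5 called and 0 at an unadjusted p under 0.05. The shares over all genes were 14.8% and 31.2%. KIF4A, a chromosome-bound motor, had 23.2, 20.7, 29.8 and 38.5 CPM, above DMSO in both imatinib libraries, with 0.63 (SE 0.30, edgeR adjusted p = 0.19). KIF2C, which removes tubulin from microtubule ends, had 98.9, 118, 128 and 122 and a log2 fold change of 0.21 (SE 0.26). KIF11, the motor that separates the spindle poles, and KIF20A and KIF23, motors of the central spindle, had values of -0.02, 0.18 and -0.13 with SEs of 0.33, 0.32 and 0.31.

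The genes of spindle assembly and microtubule binding included several of the most deeply covered members. In this group 0 of 5 were called, also at an unadjusted p under 0.05, where 14.8% and 31.2% of all genes passed. HMMR, a spindle pole protein, had 331, 309, 327 and 404 CPM and a log2 fold change of 0.19 (SE 0.25, edgeR adjusted p = 0.65). NUSAP1, which bundles microtubules near chromosomes, had 189, 177, 209 and 320.2, above DMSO in both imatinib libraries, with 0.53 (SE 0.28, edgeR adjusted p = 0.24). PRC1, the cross-linker of the central spindle, had 184, 182, 146 and 262, with the imatinib libraries on either side of DMSO, and TPX2, an activator of AURKA, had 188, 188, 151 and 190.3. The log2 fold changes of PRC1, TPX2 and ASPM, a spindle pole protein of very long mRNA, were 0.15, -0.14 and -0.18, with SEs of 0.31, 0.26 and 0.32. Every read pair of NUSAP1 and of PRC1 also lay inside an annotated readthrough gene on the same strand, so the counts of each could not be kept apart from that gene.

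Neither of the cytokinesis genes and neither of the chromosome genes was called, and none of the 4 passed at an unadjusted p under 0.05. The shares over all genes were 14.8% and 31.2%. ANLN, which anchors the contractile ring, had 23.9, 31.9, 49.3 and 31.2 CPM and 0.54 (SE 0.33, edgeR adjusted p = 0.31), and ECT2, which switches on RhoA at the cleavage site, had -0.08 (SE 0.32). TOP2A, the topoisomerase that untangles sister chromosomes, had 223, 174, 194 and 253 CPM, and its imatinib libraries overlapped with DMSO at a log2 fold change of 0.17 (SE 0.27, edgeR adjusted p = 0.72). MKI67, the coat protein of mitotic chromosomes and the Ki-67 proliferation marker, had 82, 151, 126 and 45 read pairs and a log2 fold change of -0.13 (SE 0.32, 95% interval -0.85 to 0.59).

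**Figure D3:**
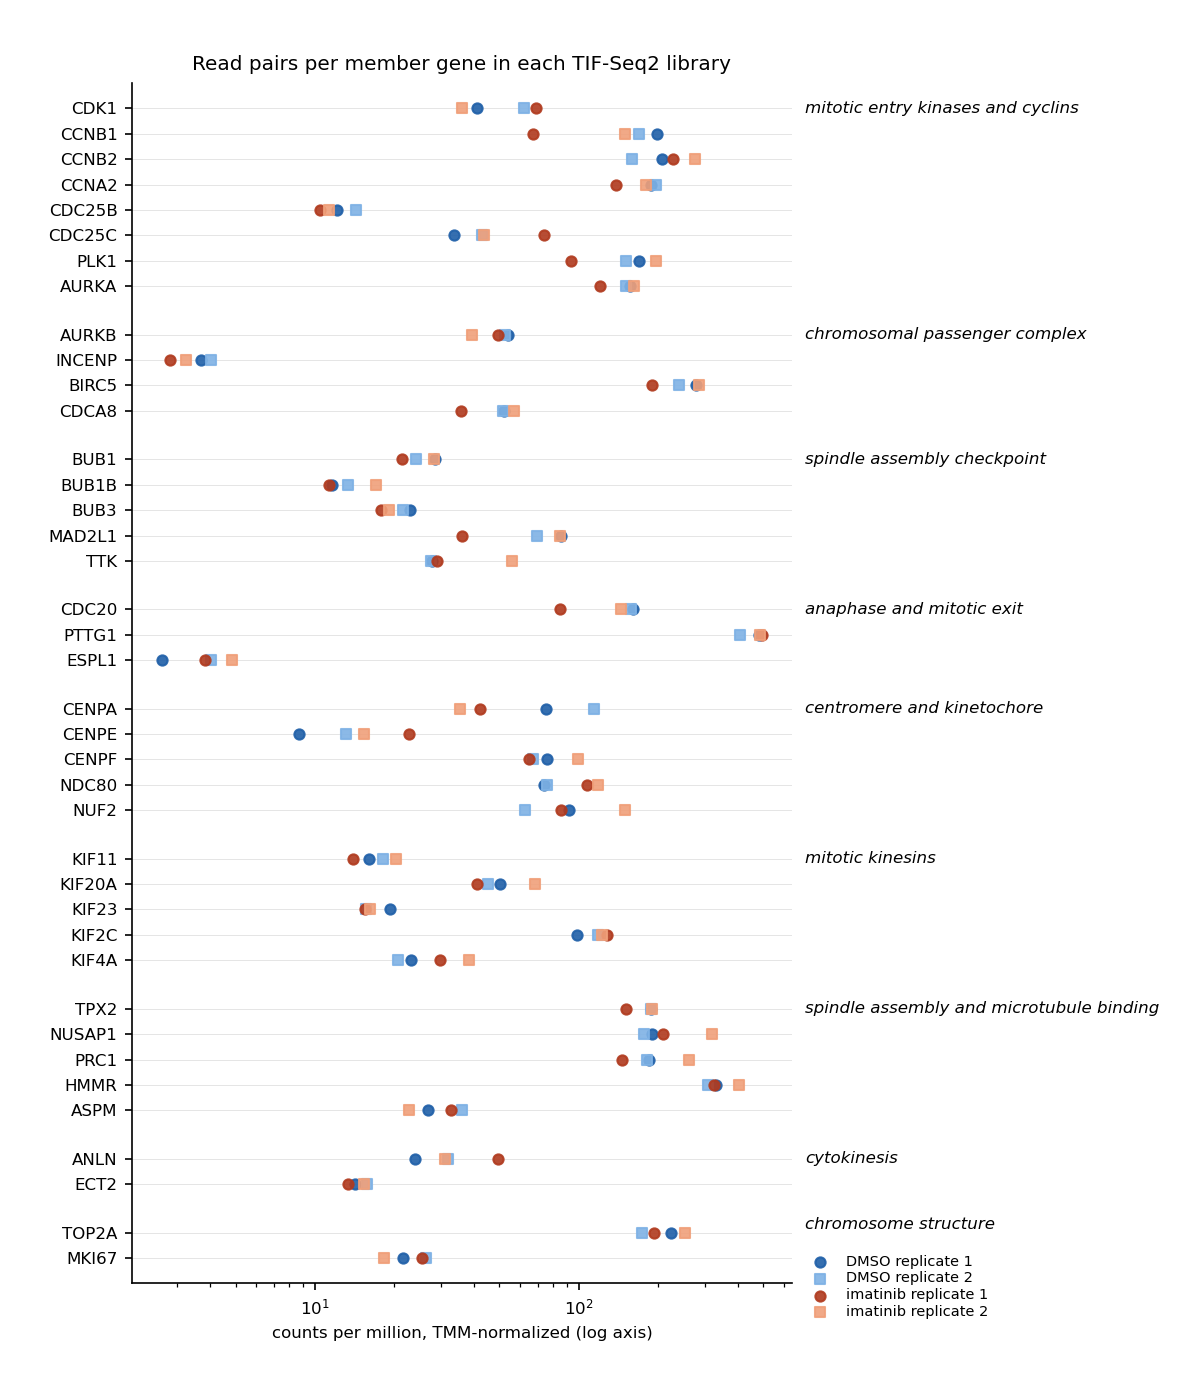
TMM-normalized CPM (log axis) of 39 member genes in each library, grouped by role, with DMSO in blue, imatinib in red, circles for replicate 1 and squares for replicate 2. For CENPA both red points lie left of both blue points, and for CCNB1, PLK1 and MAD2L1 imatinib replicate 1 stands apart from the other libraries.

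The 2 imatinib libraries differed from each other more than the DMSO libraries did. The ratio of replicate 1 to replicate 2 ran from 0.428 (MAD2L1) to 1.91 (CDK1) with imatinib and from 0.653 to 1.48 with DMSO. It lay beyond 1.5-fold in 15 of 39 members with imatinib and in 4 with DMSO, while over all genes tested the shares were 37.5% and 23.1%. Imatinib replicate 1 was the lower library in 29 of the 39 members, with a median ratio of 0.788, against 1.00 over all genes. Low in replicate 1 were MAD2L1, CCNB1, PLK1, TTK and PRC1, with ratios from 0.428 to 0.559, and high in it were CDK1, CDC25C and ANLN, with 1.91, 1.7 and 1.58. The 67 other mitotic genes gave a median ratio of 0.772, with 49 lower in imatinib replicate 1.

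Which members passed therefore depended on which imatinib library was kept. Without imatinib replicate 2, CENPA (-1.20), CCNB1 (-1.48), MAD2L1 (-1.13), CDC20 (-0.94) and PLK1 (-0.81) were lower and CENPE (1.00) and CDC25C (0.91) higher in log2 fold change. Without imatinib replicate 1, CENPA (-1.40) was lower and TTK (1.03), NUF2 (0.98) and NUSAP1 (0.82) were higher. These were 7 and 4 of 39 members, where 30.5% and 18.3% of all genes tested were called, and CENPA was the one member called in both. In these fits the lone imatinib library is assumed to vary as the DMSO libraries do, and the edgeR adjusted p-values ran from 6.5e-05 to 0.036. The median log2 fold change of the members was -0.18 without imatinib replicate 2 and 0.15 without imatinib replicate 1.

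Other genes of the cell cycle were counted in the same fit. Over all genes tested 14.8% were called, 6.15% lower and 8.69% higher. Of 67 other mitotic genes 1 was lower and 1 higher, a share of 2.99%. The lower one was CEP55, an abscission protein, with 13.4, 16.1, 1.81 and 4.05 CPM and a log2 fold change of -2.45 (SE 0.45, edgeR adjusted p = 0.01), and the higher one was DSN1, a kinetochore protein, at 1.23 (SE 0.28, adjusted p = 0.023). Of 21 transcription regulators of the cell cycle, among them FOXM1, MYBL2 and the E2F family, 1 (4.76%) was higher, E2F2 at 1.05 (SE 0.30, adjusted p = 0.048). Of 35 genes of DNA replication and S phase 4 (11.4%) were higher and 0 lower, near the share of all genes called higher. They included LIG1, a DNA ligase, and CDT1, a replication licensing factor, at 1.18 and 1.10 on the log2 scale, with SEs of 0.27 and 0.30 and edgeR adjusted p-values of 0.023 and 0.039. MCM2, a subunit of the replicative helicase, was also higher at 1.01 (SE 0.28, edgeR adjusted p = 0.041) and was named after its value was seen. The medians of these lists were 0.09, 0.39 and 0.07 on the log2 scale beside 0.03 over all genes. The erythroid markers moved in another range, with 8 of 12 (66.7%) higher and a median of 1.92.

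The read pairs also show which ends each mRNA had. Start and poly(A) clusters linked by at least 4 read pairs, called TIFs for boundary transcript isoforms, were found 172 times in 31 members. No TIF was found for BUB3, CDC25B, CENPE, ECT2, ESPL1, INCENP, KIF4A, MKI67 and UBE2C, which depended on the setting. A start position needed at least 5 to 11 read pairs, depending on the library, in at least 2 libraries. With clusters from positions with 2 tags, 37 members had a TIF. CDC25B and KIF4A had 109 and 159 read pairs with both ends within 200 bp of annotated ends. In 117 TIFs (68.0%) both ends lay within 200 bp of those of an annotated transcript, against 56.3% of all 34441 TIFs. The poly(A) site was the end further away in 40 TIFs, the start in 8 and both in 7. A single TIF held a median of 66.0% of the linked pairs in the 30 members with more than 1. More than 1 start cluster was used by 25 members and more than 1 poly(A) cluster by 23, while 8 used a single poly(A) cluster. The largest poly(A) cluster held at least 80% of the linked pairs in 18 members and less in 13.

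Poly(A) sites are usually preceded by the hexamer AATAAA or ATTAAA, to which the cleavage complex binds. Among the 86 poly(A) clusters of the members, 58.1% had AATAAA and 12.8% ATTAAA from 10 to 35 nt upstream of the most used position, against 47.9% and 16.1% of the 19408 sites in all TIFs. The sites of members whose choice of site is described below are shown as the 30 nt of hg38 that end at the site, on the gene's strand, with the hexamer in capitals where it falls inside them.

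CENPA near site, chr2:26794556-26794585, + strand: gagagatAATAAAaatcaaaatatttaatg
CENPA far site, chr2:26801033-26801062, + strand: AATAAAgaAATAAAaattctgtgtaacttc
CCNA2 near site, chr4:121817377-121817406, - strand: gccagctgtcaggatAATAAAttgatttgg
CCNA2 far site, chr4:121816445-121816474, - strand: atttgaAATAAAccagaaatttgttacctt
BIRC5 main site, chr17:78224667-78224696, + strand: gttcctgagaAATAAAaagcctgtcatttc
BIRC5 second site, chr17:78224186-78224215, + strand: atagcacaaactacaATTAAAactaagcac
NUSAP1 near site, chr15:41380764-41380793, + strand: tatattcacaaaAATAAAactctacaactc
NUSAP1 far site, chr15:41381016-41381045, + strand: tcgtcataAATAAAattttttctcattgtc
AURKA near site, chr20:56369666-56369695, - strand: ttaagtatgaaAATAAAgatatatgtacag
AURKA far site, chr20:56369390-56369419, - strand: taaatatgcaAATAAAtaagtatctatgtc
CDC25C intron 6 site, chr5:138325800-138325829, - strand: gcaAATAAAgaaaatgtgagtgtttaatgg
CDC25C near site, chr5:138285575-138285604, - strand: caagattATTAAAagatgtctctgcaaacc
CDC25C far site, chr5:138285270-138285299, - strand: aaaatggaaaAATAAAcactacagaatgag
ANLN intron 3 site, chr7:36399476-36399505, + strand: tcatgaaaAATAAAtgcttttgttttatct
ANLN far site, chr7:36453760-36453789, + strand: ctcaAATAAAtacctgtaaatgtctaaagg
ASPM exon 3 site, chr1:197143584-197143613, - strand: acttgaagaaAATAAAatacccatatcacc

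CENPA ended mostly 4 bp short of its canonical end, and a far site lay 6473 bp beyond it, at the end of another annotated CENPA transcript. The far site held 9, 8, 16 and 10 read pairs, which was 5.77%, 2.21%, 13.4% and 21.3% of the linked pairs. The 95% Wilson intervals were 3.06% to 10.6% and 1.12% to 4.30% with DMSO and 8.45% to 20.7% and 12.0% to 34.9% with imatinib. Both imatinib shares lay above both DMSO shares, although the intervals, which cover counting error only, of DMSO replicate 1 and imatinib replicate 1 overlapped. The near site held 125, 331, 100 and 29 pairs. In the test of poly(A) site usage within genes CENPA had an unadjusted p of 0.0021 and an edgeR adjusted p of 0.12, so it was not called, and without DMSO replicate 2 the unadjusted p was 0.21.

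In CCNA2 the site 933 bp before the canonical end, still in the last exon, was the usual one, with 438, 731, 435 and 180 read pairs or 73.9%, 80.2%, 75.3% and 51.9%. The far site, at the canonical end, held 18.0%, 13.8%, 18.2% and 36.0%. Imatinib replicate 2 stood apart, with the far site at a share of 36.0% (95% Wilson interval 31.2% to 41.2%), while imatinib replicate 1 lay with the DMSO libraries. The usage test gave an adjusted p of 0.72.

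BIRC5 ended mostly 939 bp before its canonical end, a share of 60.3%, 60.1%, 60.6% and 67.6% in the 4 libraries, and 1420 bp before it in a further 24.0%, 18.1%, 18.3% and 18.1%. Both lay in the last exon. These shares were much alike across libraries, with a usage adjusted p of 0.96. CCNB1 had 4 sites that each held over 5% of its linked pairs, all in the last exon, of which that 551 bp before the end held 63.2%. CDK1 ended mostly 619 bp before its canonical end, with 22, 61, 63 and 5 pairs against 4, 9, 10 and 1 at that end.

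NUSAP1 divided its mRNAs between sites 252 bp apart in an almost fixed proportion. The near site held 42.0%, 42.5%, 42.2% and 40.7% of its linked pairs in the 4 libraries and the far site 56.4%, 56.6%, 56.7% and 58.6%. AURKA used its near site, 276 bp short of the end, for 20.7%, 21.8%, 15.9% and 10.0%, lowest in imatinib replicate 2 (95% Wilson interval 6.99% to 14.2%). Its usage test gave an unadjusted p of 0.071 and an adjusted p of 0.52. KIF2C had its main clusters 23 bp apart, and CDCA8 155 bp apart, with usage adjusted p-values of 0.99 and 0.83.

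Some members ended early, inside the gene. In ANLN a site in intron 3 held 12, 9, 8 and 10 read pairs, or 28.3% of the linked pairs, against 7, 30, 43 and 6 at the canonical end. The intronic share was 52.2% and 20.9% with DMSO and 15.1% and 52.6% with imatinib, so it differed between the replicates of each condition. The usage test gave an adjusted p of 0.93, which with so few pairs cannot show that the conditions were alike. The site was preceded by AATAAA. CDC25C had a site in intron 6 with 13, 22, 28 and 5 read pairs, beside its 2 sites in the last exon with 33, 58, 80 and 45 and 18, 56, 96 and 16. In BUB1 a site in intron 18 held 3, 8, 0 and 0 read pairs, present in both DMSO libraries and in neither imatinib library, although a share of up to 8.03% and 11.4% was still allowed there by the 95% Wilson interval.

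The longest mRNAs had few linked pairs, and many of these ended before the last exon. The 26 linked pairs of ASPM ended in exon 3 of 28, 22 of them at the site shown, which AATAAA preceded. The 46 linked pairs of CENPF ended in exons 4, 8 and 12 of 20, at sites without either hexamer. KIF11 had 10 linked pairs, 5 of which ended in exon 9 of 22 at a site without a hexamer and 5 in the last exon. TOP2A showed the other kind of short molecule. Of its 444 linked pairs 95.7% ended at the canonical poly(A) site. Of their starts 46.2% lay at the canonical start, 14.9% lay 27 bp before it and 6.76% lay 15 bp after it. Starts inside the gene made up 9.91% in exon 30, 9.23% in exon 35, 7.43% in exon 31 and 5.63% in exon 24 of 35. Over all its 3430 read pairs 34.3% had an annotated start, and 64.8% had an annotated end without an annotated start.

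Other members had simple ends. PLK1, PTTG1, CCNB2, CDC20, AURKB, TTK and PRC1 each had 1 poly(A) cluster, at most 16 bp from the canonical end, and HMMR, TPX2, NUF2 and NDC80 had over 90% of their linked pairs in 1. In PRC1 64.0% of the read pairs had at least 7 A in the 10 nt of genome after the 3′ end and were left out of TIFs, although 98.7% of its pairs ended within 200 bp of an annotated end. MAD2L1 ended 3814 bp before the end of its canonical transcript, where another annotated transcript ends, with 183, 230, 107 and 130 pairs.

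**Figure D4:**
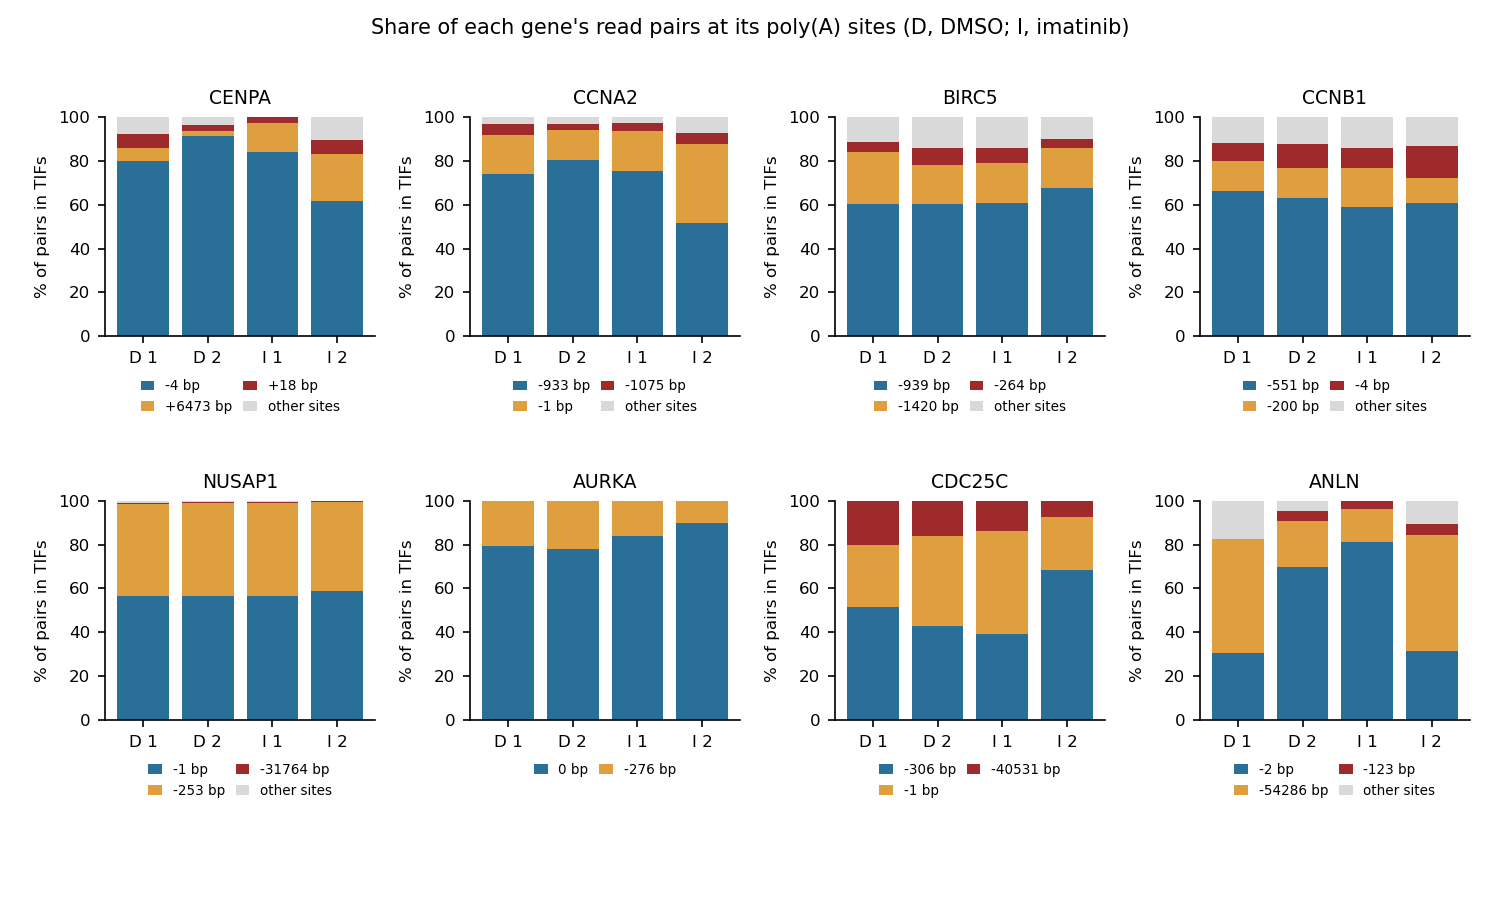
Share of the linked read pairs at each poly(A) site, in percent, in DMSO replicates 1 and 2 (D 1, D 2) and imatinib replicates 1 and 2 (I 1, I 2) for 8 members, with sites named by their distance in bp from the end of the canonical transcript and sites beyond the 3 most used in grey. NUSAP1 shows nearly equal bars in all libraries, CENPA more of the site at +6473 bp with imatinib, and ANLN a difference between replicates of both conditions.

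No isoform of a member changed past the threshold with imatinib. Of 86 member TIFs tested in 26 members 0 were called by edgeR, where 11.1% of 16020 TIFs were. At an unadjusted p under 0.05 10 member TIFs passed, 2 lower and 8 higher, where 28.5% of all did, and DESeq2 called 0. The lowest p belonged to the main CENPA TIF, with 106, 290, 83 and 27 read pairs and a log2 fold change of -1.32 (SE 0.44, adjusted p = 0.081). In poly(A) site usage 0 of 14 members tested were called, where 0.701% of 2281 genes were, and 1, CENPA, passed at an unadjusted p under 0.05, where 10.7% did. Without imatinib replicate 1, 8 of 93 member TIFs were called, where 12.9% of all TIFs were, and 1 of 15 members in site usage, where 1.57% of all genes were. Without imatinib replicate 2, 4 of 98 member TIFs were called, where 19.2% of all were, and 0 of 16 members in site usage, where 2.45% were.

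The share of molecules with both annotated ends differed with the length of the mRNA. Among 37 members with over 100 read pairs, the share of pairs with both ends within 200 bp of annotated ends fell with the spliced length of the canonical transcript, with a Spearman rho of -0.72 across these genes, which share the libraries and are not independent replicates. PTTG1, at 715 nt, had both ends annotated in 98.7% of its read pairs, AURKB, at 1243 nt, in 98.7%, and TPX2, at 3473 nt, in 57.3%. MKI67, CENPF and ASPM, at 12716, 10290 and 10863 nt, had 2.72%, 3.88% and 1.33%. The median was 84.6% in the 14 members up to 2.5 kb, 52.7% in the 15 from there to 5 kb and 7.05% in the 8 above 5 kb. In the last group it was 4.90% and 8.76% with DMSO and 8.33% and 4.42% with imatinib.

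The missing end differed between genes. CENPE, ECT2 and ESPL1 had an annotated poly(A) end without an annotated start in 72.6%, 73.4% and 70.3% of their pairs. CENPF and KIF11 had an annotated start without an annotated end in 46.1% and 51.2%, and 38.0% and 38.5% of their read pairs had an A-rich stretch in the genome after the 3′ end. BIRC5, CCNA2 and CDK1 lay below genes of like length, and their usual poly(A) sites, described above, lie over 200 bp from an annotated end. The read pairs of a gene counted molecules with any ends in the gene, so the levels of different members were not compared with each other.

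**Figure D5:**
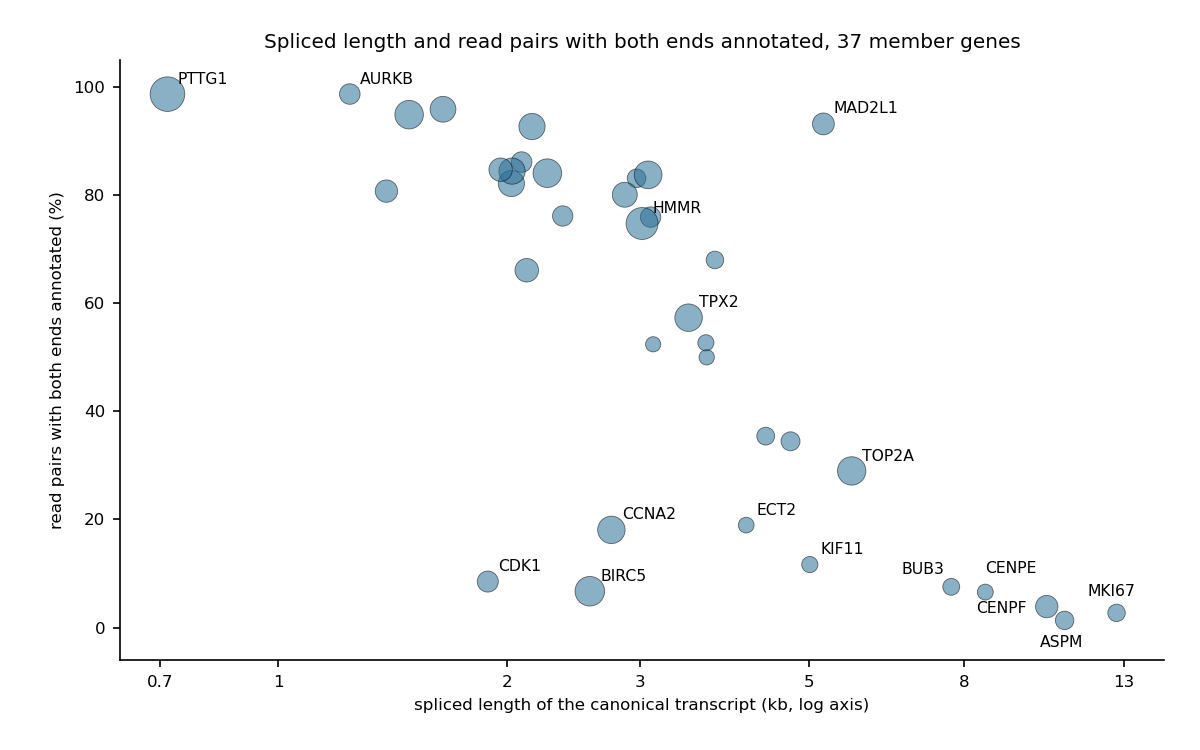
Spliced length of the canonical transcript (kb, log axis) against the percentage of read pairs with both ends within 200 bp of annotated ends, for 37 member genes with over 100 read pairs, where a larger point has more read pairs. The share declines from 98.7% for PTTG1 to 1.33% for ASPM, with CDK1, BIRC5 and CCNA2 below genes of like length and MAD2L1 above them.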

How the data were processed

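The deposited values are raw counts of read pairs for each pair of start and end positions seen, in a table for each library. The authors trimmed reads with cutadapt 1.16, aligned both ends to hg38 with STAR 2.5.3a and removed PCR copies by UMI before counting, and the deposited counts still held pairs with an A-rich stretch after the 3′ end. The long-read models were not used.

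Pairs were assigned to genes of Gencode v44, whose ends were compared with the tables first, and a pair inside several genes counted in each. The members and lists were chosen with earlier results of these data known. Gene sums were tested with edgeR 4.0.16 in R 4.3.3 (TMM, filterByExpr, robust quasi-likelihood test, Benjamini-Hochberg adjustment over 12135 genes, threshold 0.05), with DESeq2 1.42.0 as an alternative. SEs were taken from each log2 fold change and its F statistic. For TIFs, the pairs left out had at least 7 A in the next 10 nt of genome or ends outside 300 bp to 2 Mb, tags were normalized by a power law (exponent 1.25), tags with at least 1 normalized count in 2 libraries were joined within 10 bp, and links needed 4 pairs. Poly(A) site usage was tested with diffSpliceDGE of edgeR. The statistical steps were tested on simulated data. Sequences were read from hg38.

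All 40 members may be named. Values per library are given for called members, the 10 with most read pairs and others with widely spread libraries, and isoforms for members whose largest poly(A) cluster held under 80% of pairs or with a TIF of at least 10% ending over 200 bp from annotated ends. From other lists the 3 called genes with the lowest p were named, except 1 result that is not reported here. The DMSO replicates had a log2 correlation of 0.978 over genes and the imatinib replicates 0.952, with chi-squares of 9.38 and 15.3 per degree of freedom, above what counting error gives, so each was counted as a library of its own. Alternatives were other normalizations, filters, flanks, clusterings, blocks and leaving out each library.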

Additional observations from a re-analysis of the deposited data

How the results depend on the processing

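CENPA stayed lower with a log2 fold change from -1.57 to -0.96 over all alternatives, and its call was lost in the fit with a replicate block (-1.25, adjusted p = 0.069), without DMSO replicate 2 (-0.96, adjusted p = 0.27) and when a log2 fold change beyond 1.5 was also required. Members called lower were thus 0 in these and 2 (with CCNB1) without a filter on low counts. The labels do not say whether equal replicate numbers share a culture or batch. Same-numbered libraries deviated with a correlation of -0.24 over genes, which cannot decide it with 2 libraries in each condition. Pairing by number thus rests on the number alone. With the replicate block 1148 genes (413 lower) and 1106 TIFs were called, and 0 genes in poly(A) site usage. A crossed pairing, added after the data were seen, called 3723 genes (1790 lower, 1933 higher) and 2 members lower. Without a filter 2732 genes (1322 lower), 3106 TIFs and 1 member TIF were called, with the fold threshold 1180 genes (396 lower), and by DESeq2 692 genes higher. Poly(A) usage calls over all genes were 28 with clusters from positions with 2 tags and 4 by the Simes test. Leaving out 1 library at a time gave 820 to 3986 genes (323 to 1845 lower, 497 to 2141 higher), 0 to 5 members lower, 0 to 3 higher, a member median of -0.18 to 0.15, 713 to 3597 TIFs, 0 to 8 member TIFs, and 0 to 64 genes (0 to 1 members) in site usage. The most member calls, 5 lower without imatinib replicate 2 and 3 higher without imatinib replicate 1, came from leaving out an imatinib library, and the cause was not tested.

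Member TIFs numbered 109 when tags were joined within 20 bp, 539 with clusters from positions with 2 tags, and 111 and 104 in DMSO replicate 1 and imatinib replicate 2 alone. The median share of the largest TIF was 79.3% and 69.0% in the former alternatives and 68.1%, 70.1% and 68.2% in DMSO replicate 2, imatinib replicate 1 and imatinib replicate 2 alone. The share of TIFs with both ends annotated was 59.6% and 20.8% in the former alternatives, 71.9% with 10 read pairs per TIF, 52.9% within 100 bp, and 74.8%, 72.7% and 74.0% in DMSO replicate 1, DMSO replicate 2 and imatinib replicate 2 alone. Of 465 values of single members under an alternative 420 kept their direction and side of the threshold, 11 became calls, 2 lost the call and 32 changed sign without a call. Imatinib replicate 2 was the shallowest library, with 2263121 read pairs.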
